A study of Mus musculus with 6 samples.

Results

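The genes described here encode the extracellular matrix and the receptors that bind it: laminin chains, collagens, basement membrane linkers, adhesive glycoproteins, integrin chains and dystroglycan. They were taken from the count table by a pattern over gene symbols, chosen with earlier results of these data known, and number 92 of 21652 listed genes. Ribosome footprints, mRNA pieces shielded from nuclease by translating ribosomes, were sequenced from MIN6, an insulin-secreting mouse line from a pancreatic beta-cell tumour. There were 3 libraries of cells with the guide sgNT, taken here as a non-targeting control, and 3 of cells with sgLTN1, a CRISPR guide against Ltn1. Ltn1 encodes Listerin, the ubiquitin ligase that marks unfinished proteins on stalled large ribosomal subunits. All 6 libraries share 1 batch label and the same line, and the labels set the groups apart by guide alone. Whether a group was a clone or a pool, and whether its libraries came from separate cultures, is not given in the sources used here. The p-values therefore measure the spread between these libraries, which may be technical.

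Laminins are trimers of an alpha, a beta and a gamma chain that assemble into the sheet of the basement membrane, where nidogens, perlecan and agrin join them to a network of type IV collagen. Cells grip this sheet through integrins, each a pair of an alpha and a beta chain, and through dystroglycan. In islets, the basement membrane next to beta cells is known to be made largely by blood vessel cells, and beta cells bind its laminins through integrins and the glycoprotein Bcam.

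The sgNT libraries held 4373467, 7802364 and 4479680 counts and the sgLTN1 libraries 11198735, 9683201 and 4993245. Libraries 1 and 2 of sgLTN1 were deeper than any sgNT library, and sgLTN1 library 3 lay within the sgNT range. In all, 12782 genes had enough counts to be tested. Levels are in CPM, counts scaled to a common library size with TMM factors for composition, and they are compared only within a gene, since coding lengths were not used. Footprints on Ltn1 read 141 to 145 CPM in the sgNT libraries and 64.9 to 71.4 CPM in the sgLTN1 libraries (log2 fold change -1.09, SE 0.07, adjusted p = 9.24e-05 in edgeR). Beta-cell markers summed to 135691 to 148716 CPM in sgNT and 139233 to 160133 CPM in sgLTN1, with Slc2a2 (0.743 CPM on average) and Ucn3 (0.313 CPM) nearly absent. Markers of cells that make much matrix in tissue were scarce: 12 fibroblast and stellate genes summed to 12.6 to 14.0 CPM in sgNT and 10.2 to 13.4 CPM in sgLTN1. The 12 endothelial genes summed to 15.1 to 20.4 and 15.8 to 20.8 CPM. None of either list was at 0 in every library, and Cdh5, Pecam1, Dcn and Lum had means of 0.590, 0.440, 0.366 and 0.161 CPM. For leukocyte genes the sums were 35.5 to 60.5 CPM in sgNT and 35.1 to 39.9 CPM in sgLTN1, most of it Cd68 and Fcer1g. Acinar and duct genes summed to 9.15 to 11.0 and 9.57 to 13.4 CPM, and genes of other islet hormone cells to 782 to 896 and 712 to 856 CPM. Footprints came from whole cultures, so fewer cells with a gene and fewer footprints per cell cannot be told apart, and an mRNA level was not used to divide occupancy from mRNA amount.

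Of the 92 genes, 60 passed the filter on low counts, and the other 32 held between 0 and 17 counts in any library. The members' summed share of a library was 0.359% ± 0.0108 in sgNT and 0.384% ± 0.0239 in sgLTN1 (mean ± SD, n = 3 per group, as for every ± below), and these ranges overlapped. Itgav and Itgb1 alone gave 60.9% ± 1.56 and 61.6% ± 2.10 of these counts, a share that also depends on their length.

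The question was which of these genes carried more or fewer footprints when Ltn1 was targeted. Among the members 1, Lama5, passed an adjusted p of 0.05 and was higher in sgLTN1, and none passed in the lower direction (quasi-likelihood test of edgeR, Benjamini-Hochberg over all tested genes). Of all tested genes 0.18% passed, and 0.0861% passed and were higher. DESeq2 called 3 members. The authors' deposited table also called 3, of the 9 members that it gave an adjusted p. Over all genes that it gave one, it called 8.42%. Without sgLTN1 library 3 edgeR called 4 (Dag1, Itga9, Itgav and Lama5), where it called 2.47% of all genes. Without the filter on low counts it called 3 (Itga6, Itga9 and Lama5), against 1.06% of all genes. With replicate number added to the fit it called 4 (Dag1, Itga6, Itgav and Lama5), where it called 609 of all 12782 tested genes. The log2 fold change of sgLTN1 over sgNT was above 0 for 30 tested members and below 0 for 30, where 47.3% of all genes were above 0, with a median of 0.0040 against -0.02 for all tested genes. For 11 members, 6 higher and 5 lower, no library of one group lay within the range of the other. This is 18.3% of the tested members against 20.2% of all genes (10.1% higher and 10.1% lower). An unadjusted p below 0.05 was reached by 15 members, 8 higher and 7 lower, or 25.0% against 15.6% of all genes. The genes are described below by role.

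**Figure D1:**
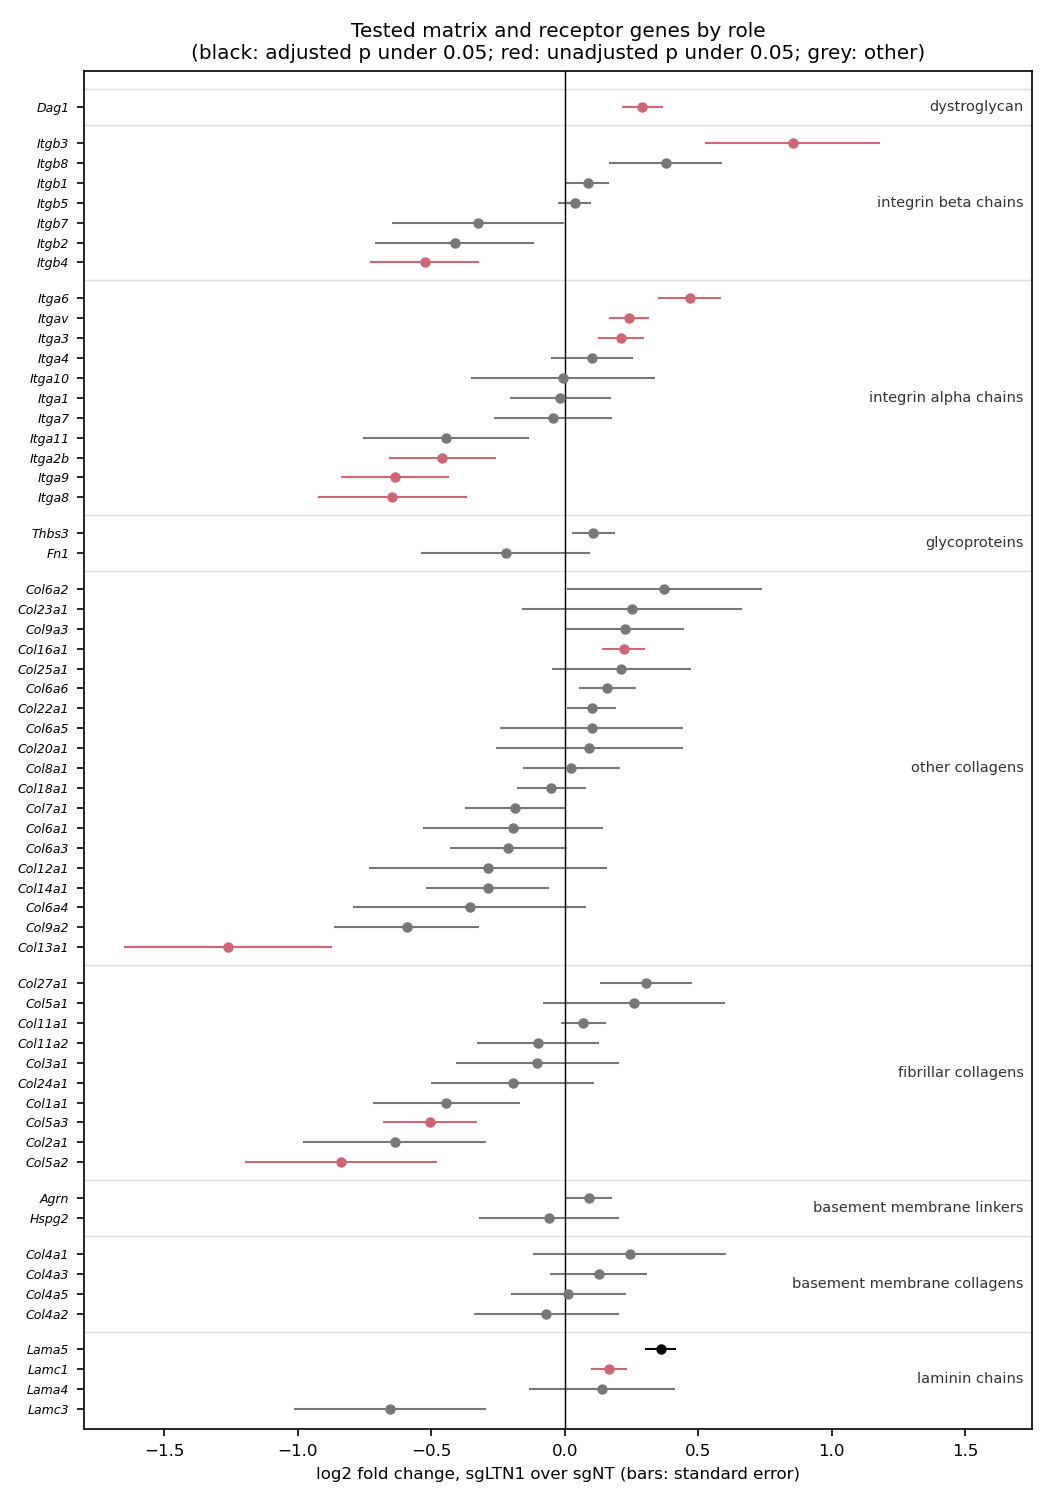
Log2 fold change of sgLTN1 over sgNT (x axis) for the 60 tested members, grouped by role (y axis), with standard errors as bars. Lama5, in black, is the only one past an adjusted p of 0.05. The 15 with an unadjusted p below 0.05 lie on both sides of 0.

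Among the 11 laminin chain genes, the alpha 5 chain Lama5 (ENSMUSG00000015647.10) rose. Its 3 sgNT libraries read 220.3, 210.2 and 212 CPM and its 3 sgLTN1 libraries 273, 274 and 277 CPM. Each sgLTN1 library lay above each sgNT library, by far more than the libraries of a group differed among themselves. The log2 fold change was 0.36 (SE 0.06, adjusted p = 0.0391 in edgeR), or 1.28-fold. The authors' deposited table gave 0.38 (SE 0.08) with adjusted p = 5.24e-04. Without sgLTN1 library 3 the call was kept (adjusted p = 0.020), and it ended without any other single library. Without sgNT library 1, 2 or 3 the adjusted p was 0.0885, 0.128 and 0.105, and without sgLTN1 library 1 or 2 it was 0.234 and 0.306, while the log2 fold change stayed between 0.36 and 0.40. The call also ended when libraries were scaled by total counts (0.28, adjusted p = 0.0766) and when a trend of fold change with abundance was removed (0.28, adjusted p = 0.0693).

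Lamc1, the gamma 1 chain that partners the alpha 5 chain in trimers, read 246, 232 and 217 CPM in sgNT and 269, 264 and 246 CPM in sgLTN1. The highest sgNT library and the lowest sgLTN1 library were both at 246 CPM. The log2 fold change was 0.16 (SE 0.07) with an unadjusted p of 0.0335 and an adjusted p of 0.275. It was 0.09 with total-count scaling and 0.09 without the abundance trend. Lama4 had 2.39 ± 0.568 and 2.71 ± 0.298 CPM and Lamc3 2.19 ± 0.665 and 1.36 ± 0.279 CPM, both with groups that overlapped. The remaining 7 laminin genes did not pass the filter, among them all 3 beta chain genes. Lamb1 held 4, 11 and 10 counts in sgNT and 11, 17 and 7 in sgLTN1, and Lamb2 5, 9 and 7 against 10, 13 and 8. Lamb3 held 1, 4 and 1 counts against 12, 6 and 7, in libraries of unequal depth, or 0.313 ± 0.157 against 1.06 ± 0.394 CPM. Lama1, Lama2 and Lama3 held at most 16 counts in any library. Summed over all laminin genes, the share of a library was 0.0469% ± 9.27e-04 in sgNT and 0.0531% ± 0.00136 in sgLTN1, without overlap, and this sum is mostly Lama5 and Lamc1.

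The stretch before the start of Lama5 is shown because this gene carried the call. It is the 250 bases upstream of the start in RefSeq (GRCm38.p6, chr2:180225860-180226109 on the minus strand), written 5′ to 3′ along the gene, with matches to the GC box GGGCGG, on either strand, in capitals. These letters occurred 4 times here. They were found in 42.6% of 21263 such windows of protein-coding genes. Footprints do not measure promoter activity, so the sequence is given as the address of the gene only.
Lama5: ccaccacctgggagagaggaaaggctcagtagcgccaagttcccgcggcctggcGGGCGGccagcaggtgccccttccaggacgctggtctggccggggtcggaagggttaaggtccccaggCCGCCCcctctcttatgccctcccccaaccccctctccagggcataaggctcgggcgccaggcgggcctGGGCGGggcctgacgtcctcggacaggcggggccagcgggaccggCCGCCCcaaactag

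The type IV collagens form the network of the basement membrane, and footprints on them were few in both groups. Of 6 genes 4 were tested and none passed, with log2 fold changes from -0.07 to 0.24. Col4a1 averaged 1.68 ± 0.671 CPM in sgNT against 2.18 ± 0.607 CPM in sgLTN1, and its neighbour Col4a2 3.03 ± 0.640 against 2.82 ± 0.668 CPM. Col4a3 read 7.87 ± 1.65 and 8.74 ± 1.13 CPM and Col4a5 4.22 ± 0.478 and 4.39 ± 0.724 CPM. Col4a4 and Col4a6 stayed under the filter. The signs of Col4a2 and Col4a5 changed with the processing, as did that of Hspg2 below.

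The linkers tie laminin to collagen, and neither tested linker passed. Agrn, which encodes agrin, read 54.1, 49.9 and 44.9 CPM in sgNT and 54.2, 52.4 and 51.6 CPM in sgLTN1, with a log2 fold change of 0.09 (SE 0.09). Perlecan, from Hspg2, read 5.08 ± 2.07 and 5.04 ± 0.282 CPM. The nidogen genes stayed under the filter, with at most 6 counts in an sgNT library and 9 in an sgLTN1 library for Nid1, and at most 6 and 8 for Nid2.

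The fibrillar collagens bear the tension of tissues, and none of them passed over all genes. Of 11 fibrillar collagen genes 10 were tested, 3 with a log2 fold change above 0 and 7 below, with a median of -0.15 (-0.06 after the abundance trend was removed). Col5a3, a minor chain of type V fibrils, read 8.71, 10.6 and 9.28 CPM in sgNT and 6.77, 5.76 and 8.42 CPM in sgLTN1. These groups did not overlap (-0.50, SE 0.17, adjusted p = 0.206). Col5a2 read 1.60, 3.09 and 3.88 CPM against 1.26, 1.63 and 2.26 CPM, which overlapped (-0.84, SE 0.36, adjusted p = 0.294). Col1a1, a chain of type I collagen, read 6.73 ± 1.34 and 5.17 ± 2.14 CPM, and Col1a2 held at most 9 counts in a library. Col11a1, a chain of cartilage-type fibrils, read 33.4 ± 1.53 and 34.8 ± 1.35 CPM, and Col27a1 13.0 ± 3.83 and 16.1 ± 1.12 CPM.

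Among the other 27 collagen genes, 19 were tested, 10 above 0 and 9 below, with a median of 0.02, and none passed. Col16a1, a collagen associated with fibrils, read 30.5, 28.9 and 30.8 CPM in sgNT and 35.5, 34.6 and 34.7 CPM in sgLTN1. All sgLTN1 libraries lay above all sgNT libraries (0.22, SE 0.08, adjusted p = 0.224). Col13a1, a membrane-spanning collagen, was scarcer in sgLTN1, at 2.06, 1.73 and 1.73 CPM against 0.722, 0.977 and 0.411 CPM. It had the most negative log2 fold change of the tested members (-1.26, SE 0.39, adjusted p = 0.175), from 9, 14 and 8 counts against 8, 9 and 2. Col22a1 read 27.2 ± 1.49 and 29.4 ± 1.99 CPM, and Col6a6 18.7 ± 0.600 and 20.6 ± 2.13 CPM. Col18a1, the source of endostatin, read 22.2 ± 3.38 and 21.0 ± 2.62 CPM, and its sign changed without sgNT library 1 (0.09) and without sgLTN1 library 3 (0.01). Of 5 pairs of members that are next to each other among protein-coding genes and were both tested, 2 had log2 fold changes of the same sign and 3 did not. Col6a1 and Col6a2, for instance, were at -0.19 and 0.37 with standard errors of 0.34 and 0.37.

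Of the 6 adhesive glycoproteins, 2 were tested. Thbs3, a thrombospondin, read 63.3, 62.0 and 54.1 CPM in sgNT and 63.7, 63.8 and 66.2 CPM in sgLTN1. The groups lay next to each other without overlap, and the log2 fold change was 0.11 (SE 0.08, adjusted p = 0.574). Fn1, which encodes fibronectin, read 2.30 ± 0.589 and 1.96 ± 0.382 CPM. Sparc, a collagen-binding protein, held at most 7 counts in a library, and Thbs1, Thbs2 and Thbs4 at most 14.

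**Figure D2:**
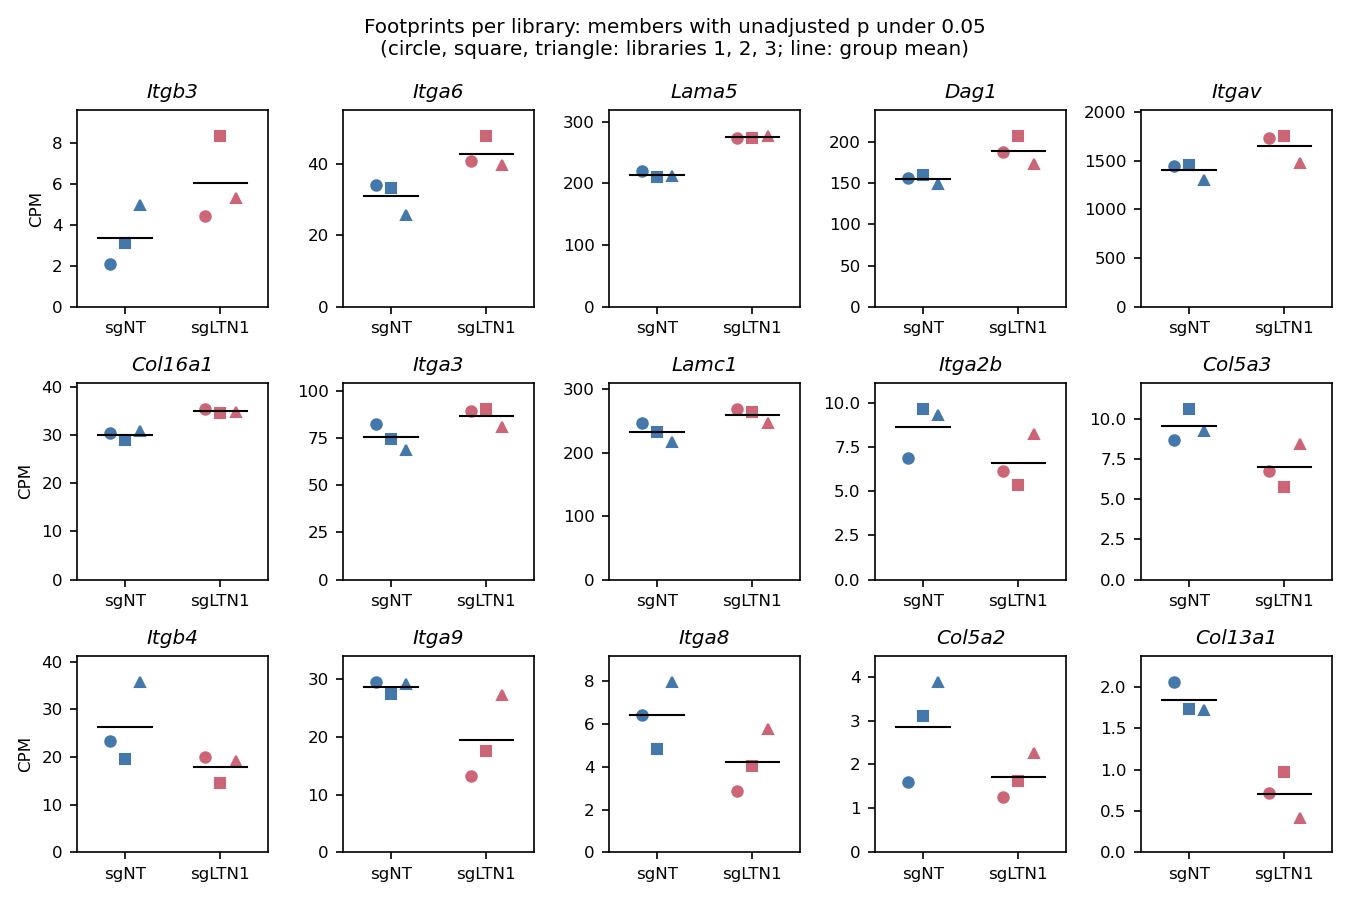
Footprints per library (y axis, CPM, from 0) in sgNT (blue) and sgLTN1 (red) for the 15 members with an unadjusted p below 0.05, from the highest to the lowest log2 fold change. Circles, squares and triangles are libraries 1, 2 and 3, and lines are group means. Lama5 spans 210.2 to 220.3 CPM in sgNT and 273 to 277 CPM in sgLTN1, while Itga9 in sgLTN1 spreads from 13.3 to 27.3 CPM.

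Integrin alpha chains help decide, with their beta partners, which ligand a receptor binds. Of 18 genes 11 were tested, 4 above 0 and 7 below (7 above 0 without the abundance trend), and 6 had an unadjusted p below 0.05, 3 higher and 3 lower. Over all genes 8% were higher and 7.56% lower at that threshold. With group alone in edgeR's fit, all libraries and the filter, no integrin gene passed the adjusted threshold. With replicate number added to that fit, Itga6 and Itgav passed, where 609 of all 12782 tested genes did. Of the 6 with an unadjusted p below 0.05, those higher in sgLTN1 were Itgav, Itga3 and Itga6. Itga6, a laminin receptor chain, read 34.2, 33.3 and 25.7 CPM in sgNT and 41.1, 48.0 and 39.9 CPM in sgLTN1. The groups did not overlap (0.47, SE 0.12, adjusted p = 0.126), and without the filter it was called (0.49, adjusted p = 0.0309). In the authors' deposited table it stood at 0.49 (SE 0.15) and had an unadjusted p of 0.00159 and no adjusted p. Itga3, another chain known chiefly for binding laminin, read 82.5, 74.6 and 68.6 CPM against 89.3, 90.3 and 80.5 CPM. Here sgLTN1 library 3 lay within the sgNT range (0.21, SE 0.08, adjusted p = 0.265). Itga7, a laminin receptor of muscle, was tested at 3.45 CPM on average and had a log2 fold change of -0.04 (SE 0.22).

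Itgav, the alpha chain shared by receptors for RGD motifs in vitronectin and fibronectin, read 1449, 1457.5 and 1299.8 CPM in sgNT and 1731, 1756 and 1479.5 CPM in sgLTN1. Library 3 had the lowest value in each group, and the groups were next to each other without overlap. The log2 fold change was 0.24 (SE 0.08, adjusted p = 0.176). It was called in the authors' deposited table (0.26, SE 0.09, adjusted p = 0.0485) and without sgLTN1 library 3 (0.32, adjusted p = 0.0329). After the abundance trend was removed it was 0.10 (adjusted p = 0.407).

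Itga9, a chain that binds tenascin and other ligands, was lower. It read 29.6, 27.5 and 29.1 CPM in sgNT and 13.3, 17.6 and 27.3 CPM in sgLTN1. Libraries 1 and 2 of sgLTN1 lay far below the controls, while library 3 nearly reached them. The log2 fold change was -0.63 (SE 0.20, adjusted p = 0.181), and it was -0.89 (adjusted p = 0.00898) without sgLTN1 library 3 and -0.39 (adjusted p = 0.465) without sgLTN1 library 1. It was also called without the filter (-0.61, adjusted p = 0.0446). Itga8 read 6.42, 4.82 and 7.98 CPM against 2.89, 4.02 and 5.75 CPM and Itga2b, the platelet chain, 6.88, 9.65 and 9.28 CPM against 6.14, 5.32 and 8.22 CPM. In both genes the groups overlapped, with log2 fold changes of -0.65 (SE 0.28) and -0.46 (SE 0.20). The collagen-binding chain Itga1 read 7.63 ± 1.73 and 7.56 ± 0.973 CPM (-0.02, SE 0.19), and Itga2 and the fibronectin receptor chain Itga5 held at most 10 counts in a library. The leukocyte chains Itgad, Itgae, Itgal, Itgam and Itgax were under the filter, with 0 to 17 counts per library.

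Of 8 integrin beta chain genes 7 were tested, 4 above 0 (2 without the abundance trend), and Itgb6 held at most 13 counts in a library. Itgb1, the partner of most alpha chains, read 783, 747 and 685 CPM in sgNT and 823, 836 and 688 CPM in sgLTN1. The groups overlapped, with a log2 fold change of 0.09 (SE 0.08, adjusted p = 0.674) that turned to -0.03 once the abundance trend was removed. Itgb5, which pairs with the alpha v chain, read 131, 136 and 139 CPM and 141, 142 and 135 CPM (0.04, SE 0.06), and it turned below 0 with total-count scaling and without the trend. Itgb8, another partner of alpha v, spread widely in sgNT, at 12.1, 15.6 and 26.1 CPM, against 23.2, 25.6 and 19.5 CPM (0.38, SE 0.21). It was 0.22 without sgNT library 1 and 0.71 without sgNT library 3. Itgb3, also a partner of alpha v, read 2.06, 3.09 and 4.96 CPM and 4.42, 8.36 and 5.34 CPM. It had the highest log2 fold change of the tested members (0.85, SE 0.33), but sgNT library 3 exceeded sgLTN1 library 1 and the adjusted p was 0.244. It was 0.52 without sgLTN1 library 2 and 1.17 without sgNT library 3. Itgb4, the partner of the alpha 6 chain in hemidesmosomes, read 23.4, 19.5 and 35.8 CPM and 20.0, 14.6 and 19.1 CPM. Its groups overlapped (-0.52, SE 0.21, adjusted p = 0.251), and sgNT library 3 stood above the other 5 libraries. Without that library the log2 fold change of Itgb4 was -0.24. The log2 fold changes of Itga6 and of its partners Itgb1 and Itgb4 were 0.47, 0.09 and -0.52, and the differences between these genes were not tested.

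Dag1 encodes dystroglycan, whose sugar chains bind laminin, agrin and perlecan. It read 157, 159.95 and 149 CPM in sgNT and 188, 208 and 174 CPM in sgLTN1. All sgLTN1 libraries were above all sgNT libraries, by 1.22-fold in the fit (0.29, SE 0.08, adjusted p = 0.131). With replicate number added to the fit it passed (0.29, adjusted p = 0.0167), where 609 of all 12782 tested genes did. It also passed without sgLTN1 library 3 (0.35, adjusted p = 0.0326). It did not pass with total-count scaling (0.21, adjusted p = 0.175) or without the filter (0.31, adjusted p = 0.0648). Nor did it pass without the abundance trend (0.23) or without any single library other than sgLTN1 library 3 (0.23 to 0.32). The authors' deposited table called Dag1 (0.31, SE 0.10, adjusted p = 0.0279). That table gave an adjusted p for 9 members and called 3, Lama5, Dag1 and Itgav, all higher.

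Upstream windows of 3 receptor genes are shown beside that of Lama5, for the receptors with the smallest p among those with a window in the RefSeq promoter table, which left out Itga6. They are Dag1 (chr9:108263959-108264208 on the minus strand; the first of 2 listed starts), Itgav (chr2:83724147-83724396 on the plus strand) and Itga9 (chr9:118711442-118711691 on the plus strand), in GRCm38.p6. The same GC box is in capitals. It occurred 3 times before Dag1 and 0 times before Itgav and Itga9, and it was present in 39 of 74 windows of the 66 members with a window in that table. The TATA letters TATAAA were found in none of the 4 printed windows and in 11.6% of windows of protein-coding genes. A match or its absence describes only these letters.
Dag1: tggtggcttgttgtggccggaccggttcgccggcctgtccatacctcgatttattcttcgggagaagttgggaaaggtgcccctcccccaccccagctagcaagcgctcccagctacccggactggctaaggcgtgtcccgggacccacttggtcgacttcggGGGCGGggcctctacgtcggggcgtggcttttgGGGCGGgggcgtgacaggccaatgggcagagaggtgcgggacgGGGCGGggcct
Itgav: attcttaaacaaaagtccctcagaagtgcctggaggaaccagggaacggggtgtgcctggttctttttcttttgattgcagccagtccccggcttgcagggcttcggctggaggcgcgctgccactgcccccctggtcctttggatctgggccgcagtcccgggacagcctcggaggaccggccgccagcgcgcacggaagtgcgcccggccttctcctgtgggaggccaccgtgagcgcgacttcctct
Itga9: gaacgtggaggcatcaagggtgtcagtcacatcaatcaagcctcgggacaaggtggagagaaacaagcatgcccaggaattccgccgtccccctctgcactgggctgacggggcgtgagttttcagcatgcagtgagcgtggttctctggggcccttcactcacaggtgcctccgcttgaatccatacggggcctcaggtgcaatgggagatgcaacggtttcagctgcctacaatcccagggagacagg

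**Figure D3:**
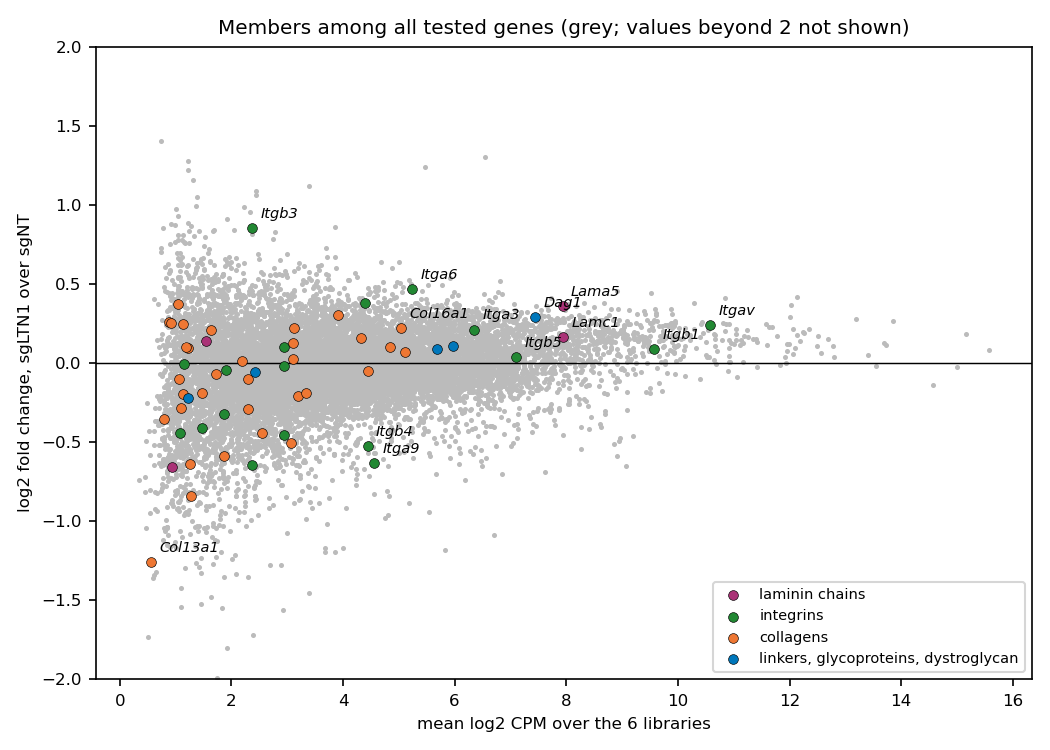
Log2 fold change of sgLTN1 over sgNT (y axis) against mean log2 CPM (x axis) for all 12782 tested genes (grey) and the 60 tested members (coloured by role). The 7 members above 6 on the x axis all lie above 0, and most members below 2 lie under it.

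The sign of a member's log2 fold change went with its abundance, as it did over all genes. Of the 25 members below a mean log2 CPM of 2, 8 were above 0 and the median was -0.19. Among all genes in this range 38.8% were above 0, with a median of -0.11. Between 2 and 4, 7 of 17 members were above 0, where 42.0% of all genes were. Between 4 and 6, 8 of 11 members were above 0, where 49.2% of all genes were. In that range 8 members were also above 0 without the trend, where 1860 of all 3825 genes were. All 7 members above 6 (Lama5, Lamc1, Dag1, Itga3, Itgav, Itgb1 and Itgb5) were above 0 with a median of 0.21, where 65.3% of all genes were above 0 and their median was 0.07. With the trend removed by offsets per gene and library, 5 of these 7 stayed above 0 with a median of 0.10, and Itgb1 and Itgb5 turned negative. In that fit 1057 of all 2038 genes in this range were above 0, with a median of 0.0074. With total-count scaling 6 of 7 were above 0. Over all tested members, 34 were above 0 without the trend (median 0.03), where 49.4% of all tested genes were (median -0.0037). With total-count scaling 26 members were above 0 (median -0.07), where the median of all tested genes was -0.09 and 33.1% of them were above 0.

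**Figure D4:**
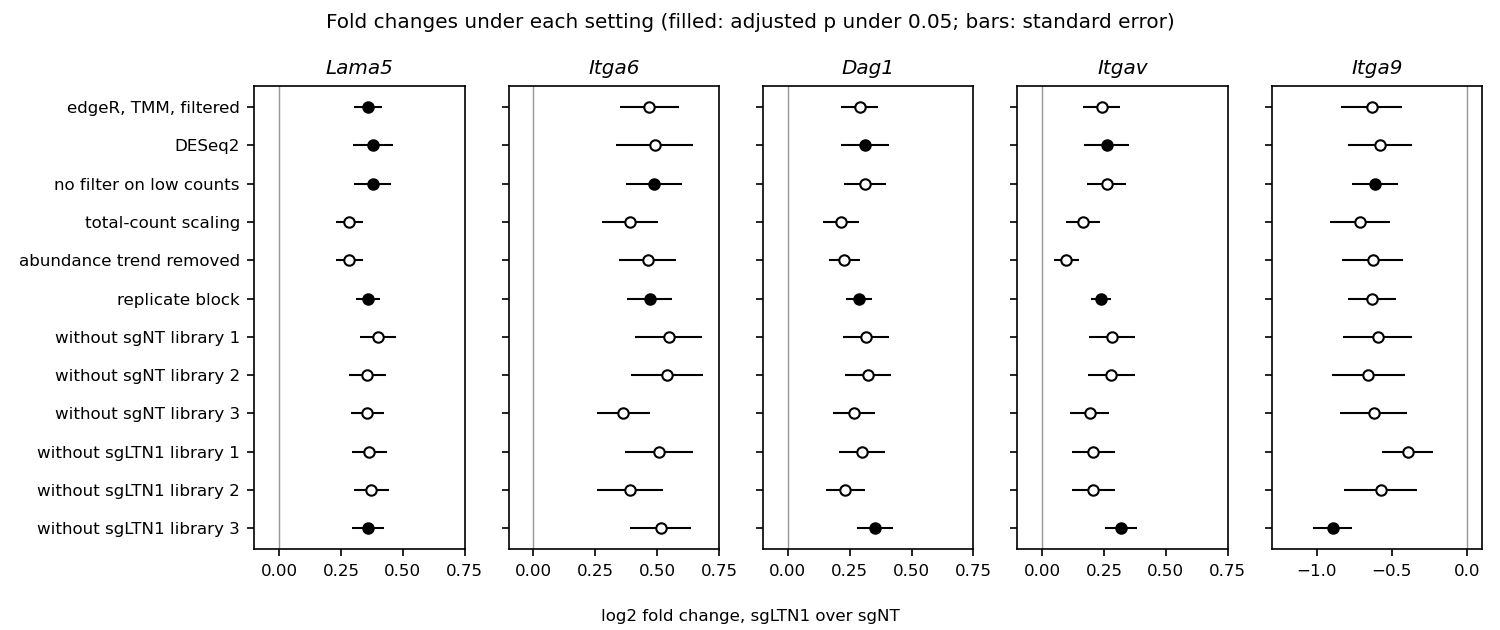
Log2 fold change of sgLTN1 over sgNT (x axis) with its standard error for 5 members under each processing setting (y axis). Filled points passed an adjusted p of 0.05. Lama5 stays between 0.28 and 0.40, and Itga9 moves from -0.89 to -0.39 with the sgLTN1 library that is left out.

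Genes that make, bind or cut the matrix were counted from 6 further lists, chosen with earlier results of these data known. None of their genes passed an adjusted p of 0.05 over all genes in edgeR's test with group alone. An unadjusted p below 0.05 was reached by 41, a threshold that 15.6% of all genes passed. Of the 148 tested list genes DESeq2 called 11. Over all genes, the authors' deposited table called 227 of the 2697 that it gave an adjusted p, or 8.42%. How many of the 148 had an adjusted p there is not given here. Of the same 148, edgeR called 15 without sgLTN1 library 3 and 8 without the filter, where 2.47% and 1.06% of all genes were called. With replicate number added to the fit it called 20, where it called 609 of all 12782 tested genes. Of these 20, 9 were collagen synthesis genes, each higher. The enzymes and helpers of collagen synthesis lay mostly above 0: 20 of 24 tested genes were above 0, with a median of 0.16 against -0.02 for all genes, and 14 had an unadjusted p below 0.05, all of them higher. The median was 0.07 with the abundance trend removed, again with 20 of 24 above 0, against -0.0037 for all genes. With total-count scaling it was 0.09 (18 of 24), against -0.09 for all genes. The 3 list genes described next lie above a mean log2 CPM of 6. In that range 65.3% of all genes were above 0 before the trend was removed, with a median of 0.07. The prolyl 4-hydroxylase chain gene P4ha2 read 719, 685 and 674 CPM in sgNT and 883, 913 and 784 CPM in sgLTN1 (0.31, SE 0.07, adjusted p = 0.0913). The prolyl 3-hydroxylase gene P3h1 read 77.9, 86.0 and 89.7 CPM against 109.5, 114 and 101 CPM (0.36, SE 0.08, adjusted p = 0.0981). P4hb, which encodes protein disulfide isomerase and also serves as the beta chain of prolyl 4-hydroxylase, had 4850 ± 146 and 5629 ± 166 CPM (0.21, SE 0.05, adjusted p = 0.117), and 0.04 without the trend. In each of these 3 genes all sgLTN1 libraries were above all sgNT libraries. The collagens that these enzymes act on had a median of -0.05, with 16 of 33 tested genes above 0, and of 0.02 with 18 of 33 once the abundance trend was removed.

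Genes of the dystroglycan complex and its sugar chains were above 0 in 19 of 23 cases (median 0.10; 0.12 without the trend; 0.02 and 14 of 23 with total-count scaling). Utrn, which encodes utrophin, the link from dystroglycan to actin, read 292, 294 and 252 CPM and 364, 344 and 317 CPM (0.29, SE 0.08, adjusted p = 0.136). Pomgnt2, an enzyme that builds the laminin-binding sugar chain, was at 0.32 (SE 0.11), without overlap between the groups. Other matrix receptors were above 0 in 14 of 18 cases (median 0.15; 0.10 without the trend). Bcam, the laminin alpha 5 receptor, read 207, 183 and 183 CPM and 235, 239 and 219 CPM (0.28, SE 0.07, adjusted p = 0.126). Plxnb2, a plexin listed there, was at 0.19 (SE 0.05), and Lrp4, the agrin receptor, was lower, at 3.57 ± 0.324 and 1.81 ± 0.414 CPM (-0.93, SE 0.27, adjusted p = 0.155).

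The machinery on the cytoplasmic side of integrins had 17 of 30 genes above 0 and a median of 0.03 (9 of 30 and -0.05 with total-count scaling). The actin crosslinkers Actn1 and Actn4 were at 0.32 (SE 0.10) and 0.33 (SE 0.10), while Pxn, which encodes paxillin, was at -0.65 (SE 0.20) from 6.24 ± 0.973 and 3.85 ± 0.377 CPM. Other matrix proteins were above 0 in 15 of 31 cases (median -0.0043; -0.08 and 13 of 31 with total-count scaling). The calcium-binding matrix genes Smoc1 (0.36, SE 0.08) and Spock2 (0.44, SE 0.11) were higher, without overlap, and Tnxb was at -0.83 (SE 0.22), with groups that overlapped. Of the proteases and their inhibitors, 11 of 22 were above 0 (median -0.0067; -0.08 and 7 of 22 with total-count scaling). Plaur, the urokinase receptor, came nearest to the threshold in these lists, at 26.1, 26.8 and 26.1 CPM in sgNT and 36.4, 35.8 and 41.3 CPM in sgLTN1 (0.51, SE 0.09, adjusted p = 0.058). Timp4, an inhibitor of metalloproteinases, was at -0.84 (SE 0.25), and the sheddase gene Adam17 at 0.25 (SE 0.10).

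**Figure D5:**
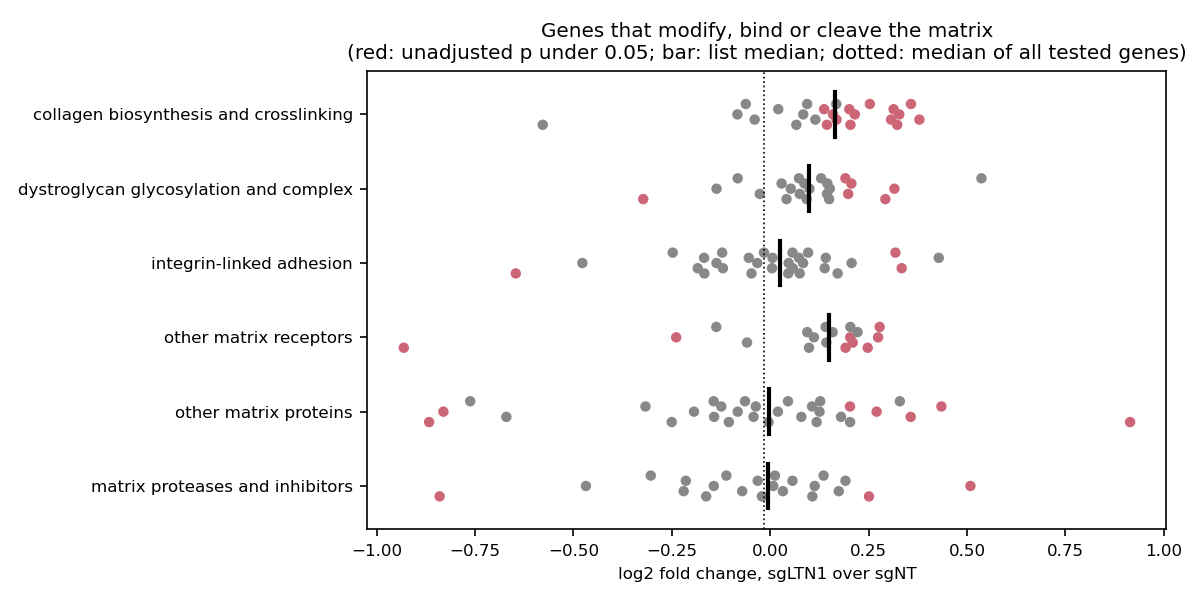
Log2 fold change of sgLTN1 over sgNT (x axis) for the tested genes of 6 lists around the matrix (y axis). Points in red had an unadjusted p below 0.05, bars are list medians, and the dotted line is the median of all tested genes (-0.02). The collagen synthesis genes lie mostly to the right, with a median of 0.16.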

How the data were processed

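Ribosome footprints were measured in 6 libraries of MIN6 cells, and the authors deposited raw read counts per gene. The build was GRCm39 and the tools were STAR 2.7.11a, Bowtie2 2.5.4, featureCounts 2.12.3, SAMtools 1.9, UMI-tools 1.1.2 and fastp 0.23.4, per the submitters' processing notes. No source used here gives the annotation, the strand setting or the use of molecular identifiers, so a gene and an antisense partner cannot be separated. A second deposited table holds, per the file headers, DESeq2 results (1.38.3 in the notes): log2 fold changes, mean normalized counts as a signal, a Wald score and p-values.

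Groups came from the genotype label. Counts were fitted in R 4.3.3 with edgeR 4.0.16 (filterByExpr, TMM, quasi-likelihood test, group only, Benjamini-Hochberg over 12782 genes, threshold 0.05). The filter left 60 of 92 members. Standard errors are from the test statistic. Alternatives were DESeq2 1.42.0, total-count scaling, no filter, each library left out, the replicate number as a block, and removal of the abundance trend (loess per library, span 0.5, with limma 3.58.1). The members and lists were chosen with earlier results of these data known. Named are members past the threshold or with an unadjusted p below 0.05, the 4 of highest mean CPM per role, and in each related list the 3 genes with the smallest p. Others are given by counts, or were chosen after their values were seen, and some genes that the rule names are not reported here. Depth was 4373467 to 11198735 counts, and members with few counts are measured less precisely. The fit was tested on simulated data with known fold changes, with 50 genes for each and the spread taken from the fit itself. It recovered 40% of 1.5-fold, 86% of 2-fold, 100% of 3-fold and 70% of 0.5-fold changes, with 5 false calls among 153. Changes smaller than 1.5-fold, such as that of Lama5, were not simulated, so a member that did not pass may still have changed. Sequences are RefSeq promoter windows of GRCm38.p6, found for 66 members, and all 92 symbols matched the RefSeq gene table.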

Additional observations from a re-analysis of the deposited data

How the results depend on the processing

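The number of members past an adjusted p of 0.05 was 1 in the report and 3 with DESeq2 (Dag1, Itgav and Lama5), 3 without a filter (Itga6, Itga9 and Lama5), 0 with total-count scaling and 0 without the abundance trend. Leaving out a library gave 0 to 4 members, the 4 without sgLTN1 library 3. The log2 fold change of Lama5 was 0.28 with total-count scaling (adjusted p = 0.0766), 0.28 without the trend (0.0693) and 0.36 to 0.40 with a library left out. Members without overlap between groups numbered 11 of 60, or 18.3% against 20.2% of all genes. They numbered 7 of 60 without the trend. With a library left out they numbered 13 to 26, of 55 to 68 tested members, where fewer libraries make separation easier. The share over all genes is not given for these alternatives, so their numbers cannot be set against it. The median over tested members was -0.073 with total-count scaling and -0.03 to 0.04 with a library left out. The lists around the matrix had 0 called genes, 11 with DESeq2, and 0 to 15 with a library left out, the 15 without sgLTN1 library 3. Without a filter 9 were called, counting also list genes that the filter of the report left out, and 8 among the 148 tested ones. Replicate numbers are shared by the groups, and the fit of the report did not pair them. Deviations of same-numbered libraries had correlations of -0.06, 0.22 and 0.23 over 5863 genes. These values cannot settle whether the libraries were pairs. With the replicate block 4 members were called (Dag1, Itga6, Itgav and Lama5), and 20 genes of the related lists. Of these 20, 9 were collagen synthesis genes, each higher. Over all tested genes 23 were called, 227 with DESeq2, 42 with total-count scaling, 222 without a filter, 609 with the block and 4 to 333 with a library left out. With a library left out, the log2 fold change moved by over 1.5 times in 23 of the 34 named members. Of 34 named members 27 kept their sign under every alternative run for them. Reversed values, all with an adjusted p above 0.8, were -0.0062 for Col11a1, -0.062 for Col4a5 and -0.038 for Itgb5 with total-count scaling; 0.023 for Col4a2, 6.17e-04 for Hspg2, -0.033 for Itgb1 and -0.014 for Itgb5 without the trend; and 0.016 for Hspg2 with the replicate block. With a library left out, Col18a1 ranged from -0.17 to 0.086, Col4a2 from -0.19 to 0.060, Col4a5 from -0.074 to 0.14 and Hspg2 from -0.29 to 0.12. The cause of these changes was not tested. Footprints per codon were not analysed here, and members with few counts, such as the laminin beta chains, are limited by depth.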
